A study of Mus musculus with 24 samples.

Results

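The Fc gamma receptors and the phagocyte NADPH oxidase were followed as a set of 9 genes out of 22274 in the deposited table of mouse brain RNA-seq. The rows were found by gene symbol, with no threshold on a measured value, for a set drawn up with earlier results of these data known. There were 5 receptor genes, namely Fcgr1, Fcgr2b, Fcgr3, Fcgr4 and the shared signalling chain Fcer1g, and 4 oxidase genes, namely Cybb, Cyba, Ncf1 and Ncf4. All 9 were listed in every library.

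The study cut the pituitary stalk of male C57BL/6J mice with a current-carrying blade, a pituitary stalk electrical lesion (PEL), and sequenced the hypothalamus and hippocampus. There were 24 libraries in 8 groups of 3. For the hypothalamus these were Sham, the lesion at day 3 (PEL_3d), the lesion at day 10 (PEL_10d), and these arms with growth hormone added (Sham_GH, PEL_3d_GH and PEL_10d_GH), and for the hippocampus Sham (HIP_Sham) and the lesion at day 10 (HIP_PEL_10d). The Sham groups carry day 0 in their labels, so the lesion and the days after surgery cannot be told apart against them. The dose of growth hormone (GH) and the age of the mice were not given in the sources used here, and the labels do not say that replicates came from separate animals, so p-values measure the spread between these libraries.

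Total counts ran from 15095267 to 17973494 per library. Tissue markers went against the labels in a pair of libraries. In the library labelled Sham 1, 10 hypothalamic markers summed to 7.37 FPKM (fragments scaled by transcript length and library size), compared with 1304 and 1219 in the other Sham libraries, and 7 choroid plexus markers summed to 14853 FPKM. Its 10 hippocampal markers summed to 272 FPKM, compared with 47.8 in the lowest Sham library. In the library labelled HIP_Sham 1 the same hypothalamic markers summed to 1060 FPKM, compared with 1.31 and 2.48 in the other HIP_Sham libraries. Its hippocampal markers summed to 46.2 FPKM, compared with 379 in the highest HIP_Sham library. Both were kept as labelled. Counts of members called against Sham or HIP_Sham, and of the gene lists against Sham, are given with and without them, while the Sham means, single fold changes and ratios hold them unless said otherwise. The third HIP_Sham library carries hypothalamus in its tissue field, but its hypothalamic and hippocampal markers lay with those of HIP_Sham 2.

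Fc gamma receptors bind the constant part of IgG. Fcgr1, Fcgr3 and Fcgr4 are activating receptors that need the gamma chain encoded by Fcer1g, whose tyrosine motif recruits the kinase Syk, whereas Fcgr2b carries an inhibitory motif that recruits phosphatases. Ligation of activating receptors on a phagocyte is one of the signals that assembles the NADPH oxidase, in which Cybb (NOX2) and Cyba form the membrane flavocytochrome and Ncf1 and Ncf4 are cytosolic subunits that join it with a Rac GTPase to make superoxide. In the brain both systems are known chiefly from microglia, border macrophages and blood-derived myeloid cells. In bulk tissue, fewer such cells and less RNA per cell cannot be told apart.

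Fcgr2b, Fcgr4, Fcgr3 and Fcer1g lie close together on chromosome 1 (GRCm38, GENCODE M21: chr1:170958617-170976547, minus strand; chr1:171018920-171029761, plus strand; chr1:171051174-171064935, minus strand; chr1:171229572-171234365, minus strand). Fcgr1 lies at chr3:96282909-96293969 on the minus strand. The oxidase genes lie apart from each other, Cybb at chrX:9435252-9487771, Cyba at chr8:122424776-122432930 and Ncf1 at chr5:134220053-134229625, all on the minus strand, and Ncf4 at chr15:78244801-78262580 on the plus strand. Of all 75-base windows of the annotated transcripts, 94 were identical between Fcgr2b and Fcgr3, which is 2.48% of the Fcgr2b windows and 5.78% of the Fcgr3 windows, and no other pair of members shared any. Reads from those stretches may be split between the pair, so their separate values are less certain than those of the other members. In the annotation an antisense transcript overlaps Fcgr2b and a long gene on the other strand spans Cyba, and whether the counting used strand was not given in the sources used here.

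Upstream sequence is shown for the activating receptors, all called higher after the lesion, and for Ncf1 and Cybb, the members with the largest and the smallest change from day 3 to day 10 without GH. Each line gives the 90 bases before a RefSeq start site (GRCm38.p6), 5′ to 3′ on the strand of the gene. Capitals mark TTCCTC, the reverse complement of GAGGAA, the box bound by the myeloid factor PU.1. The places are chr3:96293970-96294059 (minus) for Fcgr1, chr1:171059404-171059493 (minus) for Fcgr3, chr1:171018836-171018925 (plus) for Fcgr4, chr5:134229626-134229715 (minus) for Ncf1 and chrX:9469325-9469414 (minus) for Cybb.
Fcgr1: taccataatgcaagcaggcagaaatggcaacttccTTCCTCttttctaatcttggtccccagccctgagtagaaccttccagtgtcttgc
Fcgr3: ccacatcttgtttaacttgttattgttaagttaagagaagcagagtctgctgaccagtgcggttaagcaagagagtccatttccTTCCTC
Fcgr4: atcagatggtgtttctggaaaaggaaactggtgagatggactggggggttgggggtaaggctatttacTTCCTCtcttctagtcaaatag
Ncf1: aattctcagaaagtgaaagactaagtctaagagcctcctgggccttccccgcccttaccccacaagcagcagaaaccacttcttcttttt
Cybb: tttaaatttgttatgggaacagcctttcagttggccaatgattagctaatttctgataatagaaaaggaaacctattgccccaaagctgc

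GAGGAA was searched on both strands of 300-base windows, 250 bases before to 50 bases after the start, and no other motif was searched. It was found in 4 of the 8 members that had a window: starting 55 bases before the start in Fcgr1, 22 before in Fcgr4, 6 before in the Fcgr3 window printed, and 10 after in Cybb. Ncf1, Fcgr2b, Cyba and Fcer1g held no match, and Ncf4 was not analysed for it here. Among all 32851 windows in the RefSeq table, 28.3% held the motif, so the share among the members is a description of 8 genes. The starts printed for Cybb and Fcgr3 lie inside the longer GENCODE genes.

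In the Sham hypothalamus the members were low. Per length, Fcer1g (8.13 ± 2.03 FPKM, SD, n = 3) and Fcgr3 (7.73 ± 0.486) had the highest levels, followed by Cyba (4.63 ± 0.747), Fcgr2b (3.10 ± 0.681) and Ncf1 (2.30 ± 0.0918). Fcgr1 stood at 1.47 ± 0.446 FPKM, and Cybb (0.527 ± 0.242), Ncf4 (0.430 ± 0.0644) and Fcgr4 (0.191 ± 0.132) were under 1 FPKM. Fcgr4 rested on 1 to 6 counts per Sham library and Ncf4 on 8 to 10. With the library labelled Sham 1 left out, the mean of Fcer1g was 6.96 FPKM, of Fcgr1 1.25, of Cybb 0.633 and of Fcgr4 0.131 (n = 2).

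**Figure D1:**
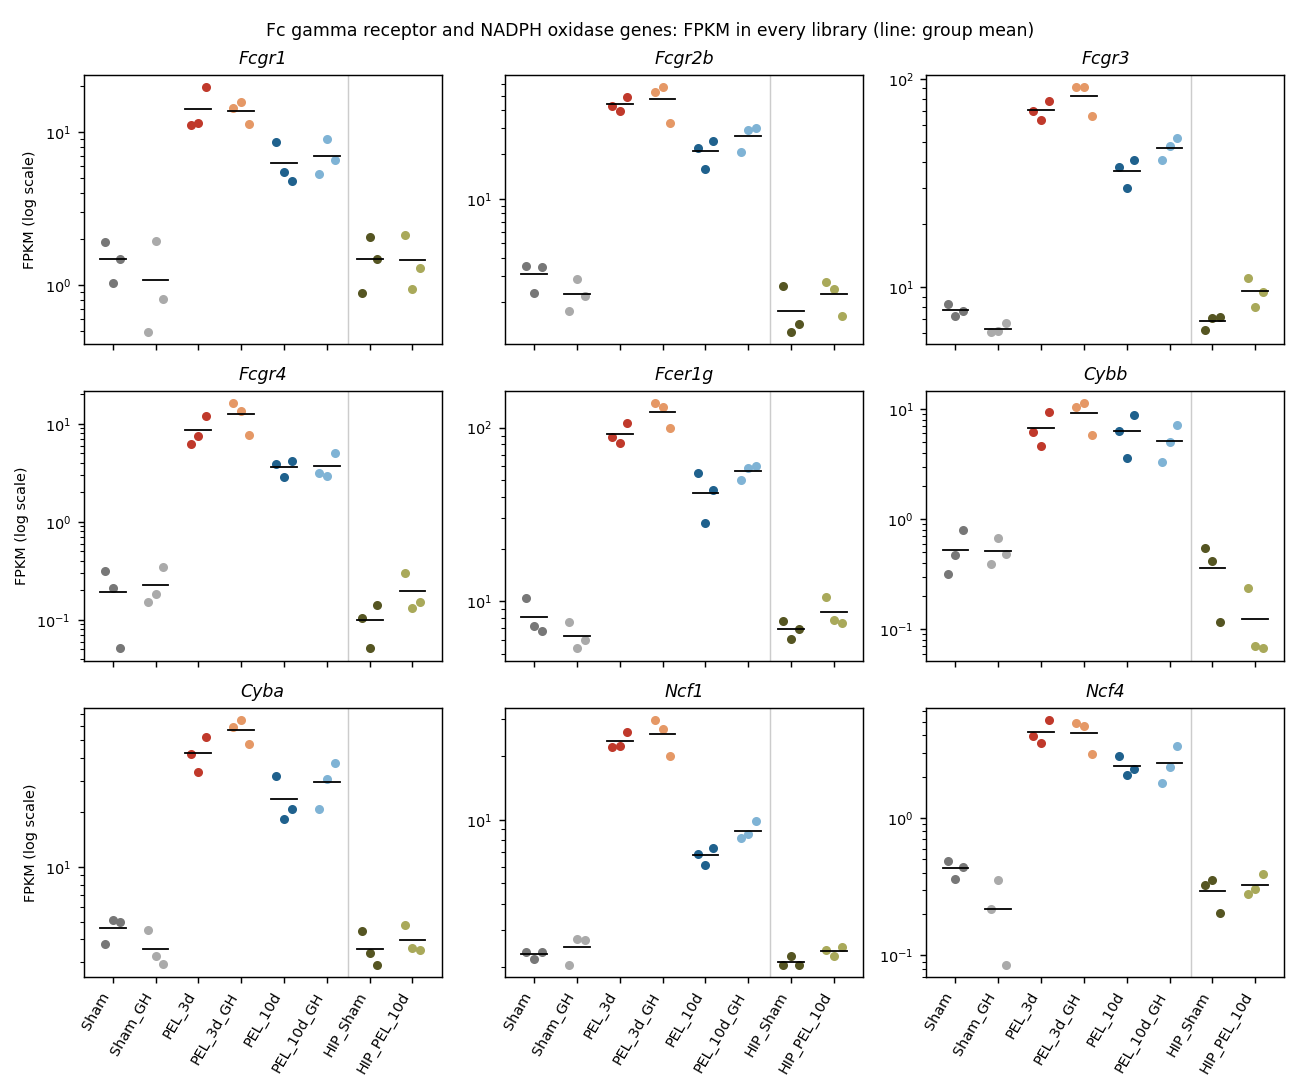
FPKM of the 9 genes in every library on a log axis, by group, with a point per library and a line at the group mean. All 12 lesioned hypothalamic libraries lie above all 6 hypothalamic libraries without a lesion for each gene, with the narrowest gap for Ncf1 (2.26-fold) and the widest for Fcgr4 (8.31-fold).

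At day 3 all members were higher in the PEL group than in the Sham group. The test was edgeR's quasi-likelihood F test on the deposited estimated counts, with Benjamini-Hochberg adjustment over all genes tested and a threshold of 0.05, and fold changes are on the log2 scale of normalized counts. In PEL_3d against Sham, 9 of 9 members passed upward, where 10.4% of all 14726 genes tested were called higher. Without the library labelled Sham 1 it was again 9 of 9, with log2 fold changes from 3.05 to 5.97, where 22.3% of genes were called higher. At both days Fcgr4 and Ncf4 passed the filter on low counts only through the lesioned group, so a rise was the direction in which they could enter, and the count over the members that passed is not support in itself.

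Among the receptors, Fcgr3 had the highest FPKM of the IgG-binding members. Its level was 8.26, 7.30 and 7.64 FPKM in the Sham libraries, 70.2, 63.6 and 78.2 in PEL_3d, and 37.8, 29.9 and 40.6 in PEL_10d. The groups did not overlap, and every day 10 library lay between the Sham and day 3 ranges. The log2 fold change was 3.16 (SE 0.13, adjusted p = 0.00029) at day 3 and 2.18 (SE 0.16, adjusted p = 0.0143) at day 10, each against Sham.

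Fcgr4, an activating receptor for the mouse IgG2 subclasses, had the largest fold change of the set. It was listed at 0.312, 0.211 and 0.051 FPKM in Sham, at 6.25, 7.61 and 11.9 in PEL_3d, and at 3.93, 2.87 and 4.19 in PEL_10d. No lesioned library came near the Sham range, and the highest PEL_3d library held 241 counts compared with at most 6 in Sham. Its log2 fold change was 5.41 (SE 0.54, adjusted p = 0.0018) at day 3 and 4.17 (SE 0.51, adjusted p = 0.0235) at day 10, and both sizes rest on very few Sham counts.

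Fcgr1, the high-affinity IgG receptor, went from 1.92, 1.03 and 1.47 FPKM in Sham to 11.2, 11.6 and 19.8 in PEL_3d and 8.61, 5.49 and 4.79 in PEL_10d. The third PEL_3d library was the highest of that group. The log2 fold changes against Sham were 3.38 (SE 0.34) at day 3 and 2.30 (SE 0.32) at day 10, with adjusted p = 0.0019 and 0.030. Its FPKM per count differed up to 1.82-fold between libraries, so the deposited FPKM used different lengths for this gene and its counts are the firmer scale.

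The inhibitory receptor rose as well. Fcgr2b was at 3.54, 2.32 and 3.45 FPKM in Sham, 42.2, 39.5 and 48.9 in PEL_3d, and 22.2, 15.9 and 24.8 in PEL_10d, with no overlap between the 3 groups. The log2 fold change was 3.83 (SE 0.21, adjusted p = 0.00034) at day 3 and 2.76 (SE 0.25, adjusted p = 0.0147) at day 10.

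Fcer1g, the gamma chain, had the highest mean FPKM of the set in every lesioned hypothalamic group. It was at 10.5, 7.18 and 6.75 FPKM in Sham, 87.8, 81.1 and 107 in PEL_3d, and 54.5, 28.2 and 43.9 in PEL_10d. The second PEL_10d library was the lowest at day 10 and still above every Sham library. Log2 fold changes were 3.46 (SE 0.24, adjusted p = 0.00050) and 2.32 (SE 0.31, adjusted p = 0.0299).

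For the oxidase, the membrane pair was unequal in level. Cyba, the small subunit shared with other NOX enzymes, was at 3.77, 5.13 and 4.999 FPKM in Sham, 42.0, 33.4 and 52.2 in PEL_3d, and 31.9, 18.5 and 20.9 in PEL_10d. Cybb, the catalytic subunit, was at 0.316, 0.474 and 0.791 in Sham, 6.13, 4.61 and 9.35 in PEL_3d, and 6.36, 3.61 and 8.87 in PEL_10d. Cyba fell between the days without overlap, whereas the Cybb ranges of day 3 and day 10 lay over each other. Log2 fold changes against Sham at day 3 and day 10 were 3.17 (SE 0.22) and 2.32 (SE 0.25) for Cyba and 4.19 (SE 0.36) and 4.09 (SE 0.41) for Cybb. The adjusted p-values were 0.00050 and 0.0190 for Cyba and 0.0010 and 0.0178 for Cybb. The FPKM of Cybb per count differed up to 2.80-fold between libraries, with nearly the same factor in all lesioned ones, and Sham 3, with the highest Sham FPKM, held the fewest counts of the Sham libraries, 21.

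Of the cytosolic subunits, Ncf1 (p47phox), which organizes the complex at the membrane, had the smallest spread between replicates relative to its mean in these 3 groups. It was at 2.35, 2.19 and 2.35 FPKM in Sham, 22.2, 22.5 and 26.1 in PEL_3d, and 6.92, 6.13 and 7.39 in PEL_10d. Its log2 fold change at day 3 was 3.33 (SE 0.12, adjusted p = 0.00029), within the range of the other members, and at day 10 it had the smallest of the set, 1.52 (SE 0.14, adjusted p = 0.0147). Ncf4 (p40phox), which binds a phosphoinositide of phagosomes, was at 0.490, 0.362 and 0.438 FPKM in Sham, 3.94, 3.53 and 5.18 in PEL_3d, and 2.85, 2.05 and 2.27 in PEL_10d. These 3 ranges did not overlap, and the log2 fold changes were 3.29 (SE 0.27, adjusted p = 0.00090) and 2.32 (SE 0.25, adjusted p = 0.0188).

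At day 10, 9 of 9 members passed upward against Sham, where 1.81% of 14610 genes were called higher. Both day comparisons used the same Sham libraries. Without the library labelled Sham 1 all 9 passed again, with log2 fold changes from 1.56 (Ncf1) to 4.73 (Fcgr4) and adjusted p from 0.00014 to 0.0035, where 7.98% of genes were called higher. With the library labelled Sham 1 kept, leaving out Sham 2, Sham 3, PEL_10d 1 or PEL_10d 3 ended every call, of the members (adjusted p from 0.089 to 0.156) and of all other genes, while the fold changes stayed between 1.46 and 4.33 and every member kept an unadjusted p under 0.05. Leaving out PEL_10d 2 ended that of Fcgr1 (adjusted p = 0.0558).

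**Figure D2:**
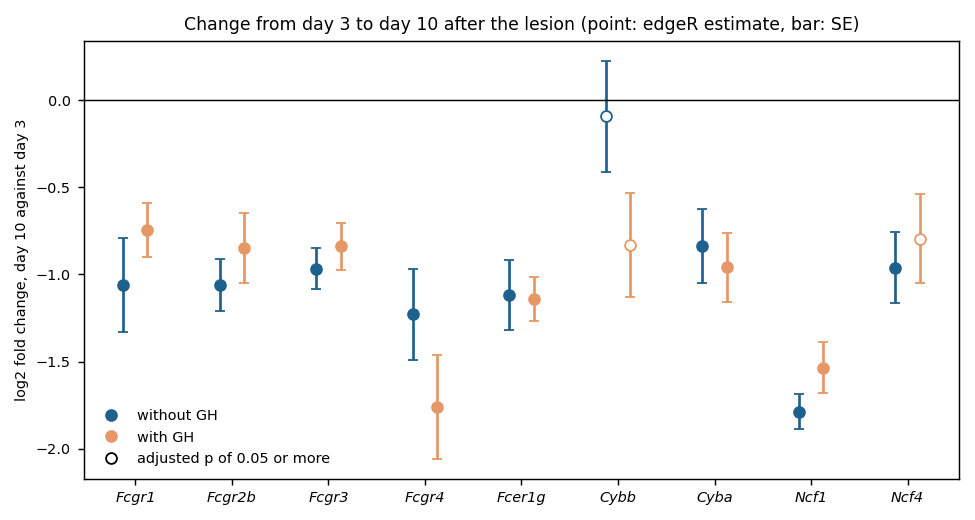
Log2 fold change of each gene from day 3 to day 10 after the lesion, without GH (blue) and with GH (orange), as the edgeR estimate with its standard error, an open symbol marking an adjusted p of 0.05 or more. Ncf1 has the largest fall without GH (-1.79), and Cybb without GH lies at -0.09.

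From day 3 to day 10 most of the set fell. In PEL_10d against PEL_3d, which uses no Sham library, 8 of 9 members were called lower, where 12.2% of 14807 genes were. For the same 8, every PEL_10d library lay below every PEL_3d library, as it did for 19.9% of genes. The log2 fold changes of the receptors were close to each other, at -1.06 for Fcgr1 (SE 0.27, adjusted p = 0.0256), -1.06 for Fcgr2b (SE 0.15, adjusted p = 0.00141), -0.97 for Fcgr3 (SE 0.12, adjusted p = 0.000602), -1.23 for Fcgr4 (SE 0.26, adjusted p = 0.0114) and -1.12 for Fcer1g (SE 0.20, adjusted p = 0.00510).

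For the oxidase genes the values between the days ran from -1.79 to -0.09, and a difference between these genes was not tested in this fit. Ncf1 fell by 1.79 on the log2 scale (SE 0.10, adjusted p = 9.15e-06), Ncf4 by 0.96 (SE 0.20, adjusted p = 0.0115) and Cyba by 0.84 (SE 0.21, adjusted p = 0.0247). For Cybb the log2 fold change was -0.09 (SE 0.32, adjusted p = 0.867), which does not show that its level was kept, since leaving out single libraries moved it from -0.44 to 0.23. On normalized counts, 92.9% of the day 3 rise of Cybb over Sham was left at day 10, compared with 49.9% for Cyba, 45.3% for Ncf4 and 20.8% for Ncf1, and the receptors and Fcer1g had between 40.2% (Fcer1g) and 44.6% (Fcgr3) left. On FPKM the share was 37.9% for Fcgr1 and 51.8% for Ncf4, so the order among these genes depends on the scale. With GH, over Sham_GH and on normalized counts, 53.8% was left for Cybb, 27.4% for Ncf1 and 28.0% for Fcgr4. The other members had between 42.3% (Fcer1g) and 55.5% (Fcgr1) left with GH. Leaving out the library labelled Sham 1 moved no share on normalized counts by more than 1 percentage point. Leaving out PEL_3d 3 lowered the count of members called lower to 5, where 7.07% of all genes were, with the calls of Fcgr1 (adjusted p = 0.0832), Cyba (0.0981) and Ncf4 (0.0521) lost, and the calls of Fcgr1 and Cyba also ended without PEL_10d 2 or without PEL_10d 3. Without PEL_3d 1 only the call of Cyba ended.

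The ratio of Ncf1 to Cybb in FPKM, looked at after these values were seen, was 3.76 ± 1.05 (SD, n = 3) in PEL_3d and 1.21 ± 0.444 in PEL_10d. It ran from 2.79 to 4.87 at day 3 and from 0.833 to 1.70 at day 10 without overlap. With GH it ran from 2.41 to 3.48 at day 3 and from 1.38 to 2.52 at day 10, where the days overlapped. In Sham it was 5.01 ± 2.26, over libraries with 21 to 34 Cybb counts.

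Growth hormone was given in 3 further hypothalamic groups. In PEL_3d_GH against Sham_GH, 9 of 9 members were called higher, where 26.9% of 14743 genes were, with log2 fold changes from 3.35 (Ncf1, SE 0.17) to 5.73 (Fcgr4, SE 0.40). In PEL_10d_GH against Sham_GH it was again 9 of 9, where 17.7% of 14686 genes were, with log2 fold changes from 1.82 (Ncf1, SE 0.14) to 3.97 (Fcgr4, SE 0.38). Adjusted p-values ran from 1.33e-07 to 2.0e-05 and from 2.52e-07 to 0.000262. Both comparisons share the Sham_GH libraries, and Fcgr4 and Ncf4 again passed the filter only through the lesioned group. The summed hypothalamic markers of these 9 libraries ran from 812 to 1218 FPKM in Sham_GH and PEL_3d_GH, and were 1087, 1635 and 6556 in PEL_10d_GH. PEL_10d_GH 3 also held the highest sum of 6 anterior pituitary markers of all hypothalamic libraries, 74.1 FPKM, compared with 1.23 to 33.4 in the others, and 2 of 3 tested were called higher in PEL_10d_GH against Sham_GH. Of the 10 hypothalamic markers, 5 were called lower and 0 higher in PEL_3d_GH against Sham_GH, where 25.1% of all genes were called lower. In PEL_10d_GH against Sham_GH, 3 were called lower and 1 higher, where 13.3% and 17.7% of all genes were. With PEL_10d_GH 3 left out, 9 of 9 members were again called higher against Sham_GH, where 14.4% of genes were, and 8 of 9 lower than in PEL_3d_GH, where 8.39% were.

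With GH the fall between the days was called in 7 of 9 members, where 10.8% of 14838 genes were called lower, and the ranges of the same 7 did not overlap, as for 19.7% of genes. Ncf1 fell by 1.54 on the log2 scale (SE 0.15, adjusted p = 0.00055) and Fcgr4 by 1.76 (SE 0.30, adjusted p = 0.0059). Fcgr4 was at 16.2, 13.7 and 7.71 FPKM in PEL_3d_GH and at 3.14, 2.92 and 5.02 in PEL_10d_GH. The third PEL_3d_GH library was the lowest of its group for Fcgr4, and also for Fcer1g, Cyba, Cybb, Ncf1, Ncf4 and the other receptors. Fcer1g (-1.14, SE 0.13), Cyba (-0.96, SE 0.20), Fcgr2b (-0.85, SE 0.20), Fcgr3 (-0.84, SE 0.13) and Fcgr1 (-0.74, SE 0.15) also passed, with adjusted p between 0.0010 and 0.0241.

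Cybb had 10.4, 11.2 and 5.75 FPKM in PEL_3d_GH and 3.27, 4.997 and 7.17 in PEL_10d_GH, so the groups overlapped. Its log2 fold change was -0.83 (SE 0.30, adjusted p = 0.0896), and that of Ncf4 was -0.79 (SE 0.26, adjusted p = 0.0667). Without PEL_3d_GH 3 all 9 members were called lower, where 16.4% of all genes were, and without PEL_3d_GH 1 or PEL_3d_GH 2 only 4 were, where 3.89% and 5.49% of all genes were. Whether the change between the days differed with GH was tested as an interaction term, and it passed for 0 of 9 members and 0.0% of all genes in edgeR, and for 0 of 9 in DESeq2. No member had an unadjusted p under 0.05, and the widest differences were -0.72 (SE 0.51) for Cybb and -0.52 (SE 0.44) for Fcgr4 on the log2 scale. A missed threshold at these errors does not show that both arms changed alike.

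Between groups with and without GH at the same day, 0 members passed in edgeR or in DESeq2. At day 3, where 0.027% of genes were called, the log2 fold changes of PEL_3d_GH against PEL_3d ran from -0.17 (Fcgr1, SE 0.23) to 0.56 (Fcgr4, SE 0.29), and 2 of 9 members had an unadjusted p under 0.05, as did 6.8% of all genes, Fcer1g (0.45, SE 0.14) and Cyba (0.45, SE 0.16), with adjusted p = 0.65 and 0.69. That count was 7 without PEL_3d_GH 3, where 19.1% of all genes had such a p and the smallest adjusted p of a member was 0.061, 5 without PEL_3d 3 (6.2% of all genes), and 1 without any 1 of the other 4 libraries (3.45% to 5.23% of all genes). Fcer1g was at 138, 132 and 100.02 FPKM in PEL_3d_GH, so its lowest library lay within the PEL_3d range.

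At day 10, where 0.0% of genes were called, the log2 fold changes of PEL_10d_GH against PEL_10d ran from -0.28 (Cybb, SE 0.34) to 0.42 (Fcer1g, SE 0.20). Unadjusted p was under 0.05 for 2 of 9 members in edgeR, Ncf1 (0.39, SE 0.11) and Fcgr3 (0.38, SE 0.13), and for 4 in DESeq2, compared with 6.14% and 4.54% of all genes. In edgeR it was 5 without PEL_10d 1 (9.69% of all genes), 4 without PEL_10d_GH 1 (8.76%), 3 without PEL_10d 3 (6.41%), 2 without PEL_10d_GH 2 (4.09%), and 1 without PEL_10d 2 (3.03%) or PEL_10d_GH 3 (4.24%). Every PEL_10d_GH library of Ncf1 (8.25, 8.52 and 9.88 FPKM) and of Fcgr3 (40.7, 47.7 and 51.9 FPKM) lay above every PEL_10d library, which held for these 2 of 9 members and for 5.28% of all genes. The adjusted p-values of both were 0.71 and 0.77. Without a lesion, Sham_GH against Sham had 7 members tested, where 0.0% of genes were called. Of these 0 passed and 0 had an unadjusted p under 0.05, compared with 5.46% of all genes. With Sham 1 left out both counts were again 0 of 7, where 0.798% of all genes were called higher, 0.296% lower, and 15% had such a p.

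The order of the groups by mean FPKM was the same for Fcgr2b, Fcgr3, Fcgr4, Fcer1g, Cyba and Ncf1 down to the fourth place, with PEL_3d_GH first, then PEL_3d, PEL_10d_GH and PEL_10d. In every member the ranges of the first 2 groups overlapped, and the fourth group did not overlap the fifth. For Cybb the first 4 groups overlapped one after another, in the order PEL_3d_GH, PEL_3d, PEL_10d and PEL_10d_GH. All 12 lesioned hypothalamic libraries lay above all 6 without a lesion in 9 of 9 members, as they did for 6.78% of genes.

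The fall between the days was set beside that of general myeloid transcripts. A reference was made of Csf1r, Itgam, Aif1, Spi1, Laptm5 and Tyrobp, genes of macrophages and microglia as a class. Their geometric mean was 6.53 ± 0.796 FPKM in Sham, 50.3 ± 6.64 in PEL_3d and 23.2 ± 2.46 in PEL_10d, so the reference itself fell. Each member was divided by it, and the log2 ratio compared between PEL_3d and PEL_10d by exact two-sided permutation tests, whose smallest possible p with 3 against 3 libraries is 0.1.

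**Figure D3:**
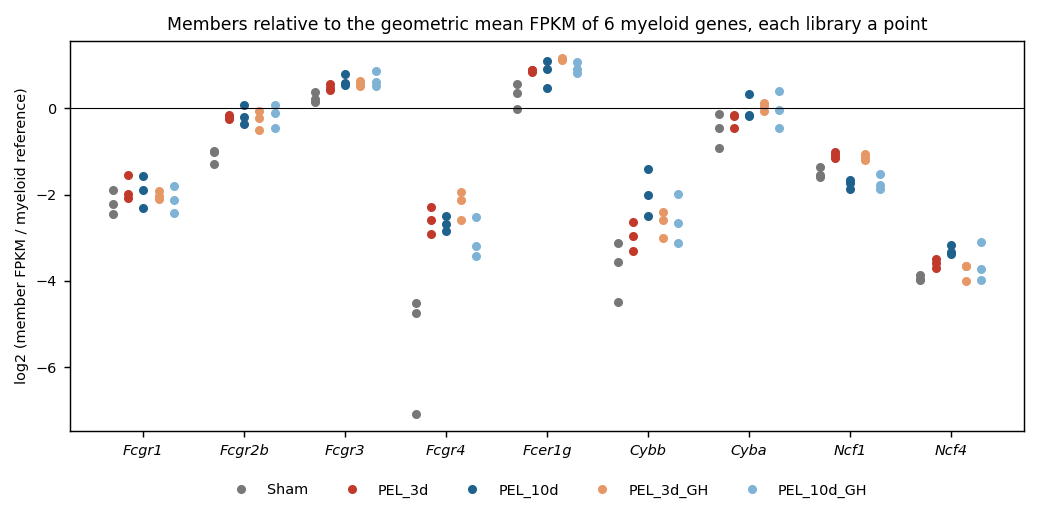
Log2 ratio of each gene to the geometric mean FPKM of 6 myeloid reference genes, with a point per library, in Sham, PEL_3d, PEL_10d, PEL_3d_GH and PEL_10d_GH. Ncf1 lies from -1.15 to -1.02 in PEL_3d and from -1.87 to -1.67 in PEL_10d. Cybb lies from -3.31 to -2.63 in PEL_3d and from -2.51 to -1.41 in PEL_10d.

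Relative to this reference, without GH, the values of the receptors and Fcer1g ran from -0.08 (Fcgr4) to 0.14 (Fcgr3) on the log2 scale. Cybb went up by 0.99, with ratios from -3.31 to -2.63 at day 3 and from -2.51 to -1.41 at day 10. Ncf1 went down, by -0.68, from between -1.15 and -1.02 to between -1.87 and -1.67. Ncf4 went up by 0.30, though its FPKM per count differed up to 1.24-fold between lesioned libraries, so this value may depend on the scale. Cybb, Ncf1 and Ncf4 did not overlap between the days and reached the smallest p of 0.1, which cannot pass a threshold of 0.05. The share of all genes without overlap in such a ratio was not taken. With GH, Fcgr4 had the widest value, -0.82 (p = 0.2, exact), Ncf1 was at -0.60 and Fcer1g at -0.21 (p = 0.1, exact, for both), and Cybb was at 0.08 (p = 1, exact). Against the homeostatic microglia list in place of the reference, Cybb went up by 0.92 and Ncf1 went to -0.75.

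In Sham, Fcgr4 stood at -5.44 relative to the reference, compared with -2.60 in PEL_3d, and Fcgr2b at -1.09 compared with -0.21. Cybb stood at -3.73 in Sham, -2.96 in PEL_3d and -1.97 in PEL_10d, and Ncf1 at -1.501, -1.09 and -1.76. The Sham value of Cybb is uncertain, since its FPKM per count differed up to 2.80-fold between libraries and was highest in Sham 3.

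The ratio of activating to inhibitory receptor transcripts was taken as the summed FPKM of Fcgr1, Fcgr3 and Fcgr4 over that of Fcgr2b. It was 3.10 ± 0.528 (SD, n = 3) in Sham and 3.43 ± 0.498 in Sham_GH, and lower in the lesioned groups, at 2.14 ± 0.0937 in PEL_3d, 2.34 ± 0.257 in PEL_3d_GH, 2.22 ± 0.204 in PEL_10d and 2.18 ± 0.168 in PEL_10d_GH. The lowest hypothalamic library without a lesion had 2.66 and the highest lesioned one 2.62, a gap much smaller than the spread within Sham. Between PEL_10d and PEL_3d the log2 ratio differed by 0.05 (p = 0.6, exact permutation), and with GH by -0.10 (p = 0.6, exact permutation), where 0.1 is the smallest p possible. Fcgr3 makes up most of the sum, and its reads may be split with Fcgr2b.

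**Figure D4:**
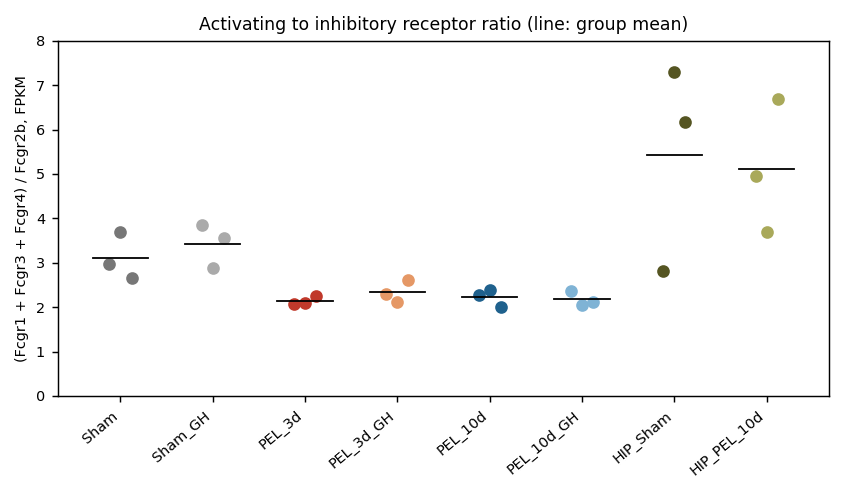
Ratio of the summed FPKM of Fcgr1, Fcgr3 and Fcgr4 to the FPKM of Fcgr2b in every library, with a line at each group mean. The lesioned hypothalamic groups lie between 1.998 and 2.62, the Sham and Sham_GH libraries from 2.66 upward, and the libraries labelled hippocampus spread from 2.81 to 7.30, or from 3.70 upward without the library labelled HIP_Sham 1.

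Of the other oxidase genes, Rac2, the GTPase of blood cells, and the proton channel Hvcn1 were called higher at day 3, with log2 fold changes of 3.91 and 3.13. At day 10, against the same Sham libraries, their values were 2.28 and 2.90, and both were called. From day 3 to day 10, Rac2 was called lower (-1.62, SE 0.21, adjusted p = 0.00086). Cybc1, which helps the flavocytochrome to mature, was at 8.90 FPKM in Sham and 13.2 in PEL_3d and was not called with all libraries.

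Of 13 other Fc receptor genes 4 were tested, and 2 were called higher at day 3, Fcrl1 (3.06) and Fcrls (3.43). Fcrls, a microglial Fc receptor-like gene, went from 11.1 FPKM in Sham to 134 in PEL_3d and 32.0 in PEL_10d, and its log2 fold change between the days was -2.06 (SE 0.07, adjusted p = 8.5e-07), compared with -1.79 for Ncf1. At day 10, 1 was called higher. All 4 were called higher at day 3 once the library labelled Sham 1 was left out, and 3 of 5 tested at day 10. Fcgrt, the neonatal IgG receptor, was at 14.6, 19.7 and 22.3 FPKM in these groups.

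The signalling list held 22 genes, all tested. For this and the lists that follow, 10.4% of all genes were called higher at day 3 with all libraries. At day 10 it was 1.81%, and between the days 12.2% were called lower. At day 3, 17 were called higher (median log2 fold change 2.60), at day 10, 11 were (1.43), and between the days 18 were called lower and 1 higher (median -1.16, compared with 0.01 over all genes). Among those lower were the Src-family kinases Fgr (-1.55) and Lyn (-1.42), the exchange factor Dock2 (-1.49) and the Rac activator Vav1 (-1.42). Fyn, a kinase of neurons and glia as well, was the 1 called higher (0.21). The counts were 20 at day 3 and 18 at day 10 without the library labelled Sham 1. With GH, 21 and 19 of the list were called higher against Sham_GH at day 3 and day 10, and 18 were called lower between the days.

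Of 9 other genes of tyrosine-motif adapters and their partners, 7 of 7 tested were called higher at day 3 and 5 at day 10. It was 7 of 8 tested at each day without the library labelled Sham 1. Tyrobp, the adapter of Trem2, fell by 0.84 on the log2 scale between the days, Cd300c2 by 0.73 and Cd300lf by 1.77. Of 10 immunoglobulin genes, only Ighm was tested in these comparisons, and it encodes the heavy chain of IgM, not of IgG. It was at 7.11 FPKM in Sham, 10.3 in PEL_3d (log2 fold change 0.51, adjusted p = 0.396) and 8.76 in PEL_10d. Ighm was called higher at day 3 without the library labelled Sham 1. Against Sham_GH, Ighm was called higher at day 3 (0.74, SE 0.16, adjusted p = 0.0026) and at day 10 (0.88, SE 0.23, adjusted p = 0.0157). The 10 genes summed to 5.36 to 11.3 FPKM in Sham, 8.60 to 12.3 in PEL_3d and 7.92 to 19.7 in PEL_10d. Igkc, a light chain gene, had a mean of 0.162, 0.426 and 2.01 FPKM in these groups and Igha of 0.0397, 0.146 and 0.671, with highest PEL_10d values of 4.999 and 1.79, and neither had enough counts to be tested in comparisons between these groups. Ighg1 was listed at 0 in all libraries of these 3 groups, and Ighg2b in Sham and PEL_3d.

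Among 16 genes of oxidant defence, 4 were called higher at day 3, Hmox1 (4.83), Gpx1 (1.32), Prdx6 (0.87) and Prdx1 (0.76), and 0 at day 10. Without the library labelled Sham 1, 9 were called higher and 2 lower at day 3, and 6 higher at day 10. In these fits 22.3% of all genes were called higher and 18.2% lower at day 3, and 7.98% higher at day 10. Against Sham_GH it was 9 higher and 3 lower at day 3, where 26.9% and 25.1% of all genes were. At day 10 it was 9 higher and 2 lower, where 17.7% and 13.3% of all genes were. Hmox1, the inducible heme oxygenase, fell by 3.01 (adjusted p = 5.8e-05) between the days, and Gpx1, Prdx6, Txnrd1 and Prdx1 were also called lower, by 0.89, 0.50, 0.40 and 0.38.

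Markers of other cells were also called in these comparisons, and their part in the results was not tested. Against Sham, 6 monocyte markers were tested at day 3 but 3 at day 10, and 7 neutrophil markers at day 3 but 3 at day 10. A marker that passed the filter only through the lesioned group could enter only as a rise, so these counts are not support in themselves. The same holds for the lists above. Monocyte markers (6 of 6 tested called higher at day 3, 4 of 7 lower at day 10 than at day 3) summed to 4.20 to 5.51 FPKM in Sham, 22.6 to 47.6 in PEL_3d and 9.44 to 12.3 in PEL_10d. Border macrophage markers (4 of 6 in the list called higher at day 3, 3 called lower between the days) summed to 4.08 to 5.19, 21.4 to 45.6 and 6.28 to 18.8 FPKM. Neutrophil markers (4 of 7 tested called higher at day 3) summed to 1.41 to 8.34, 17.9 to 31.8 and 10.8 to 18.6 FPKM, and 21.1 to 53.4 in PEL_10d_GH. Ly6g was at 0 in every Sham and PEL_10d library and at 0.065 to 0.467 FPKM in PEL_3d, and Elane was at 0 in PEL_3d.

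Homeostatic microglia markers (8 of 8 called higher at day 3, 2 at day 10, 8 lower between the days) summed to 118 to 138 FPKM in Sham, 501 to 547 in PEL_3d and 231 to 263 in PEL_10d. The markers of T and NK cells summed to 0.699 to 1.15 FPKM in PEL_3d and 2.25 to 3.29 in PEL_10d. Because of low counts 0 of 8 were tested against Sham with all libraries, and between the days only Cd4 was (log2 fold change 0.55, SE 0.54, adjusted p = 0.513). With Sham 1 left out, 0 of 1 tested were called at day 3 and 1 of 2 at day 10. Against Sham_GH, Cd4 was the only one tested at day 3 and was called higher (1.82, SE 0.44, adjusted p = 0.0061), and 1 of 2 was called higher at day 10.

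With all libraries, called higher against Sham at day 10 were 1 of 3 tested monocyte, 1 of 3 neutrophil and 1 of 6 border macrophage markers. Without the library labelled Sham 1, called higher at day 3 were 7 of 7 tested monocyte, 6 of 7 neutrophil, 5 of 6 border macrophage and 8 of 8 homeostatic markers, and at day 10, 4 of 5, 1 of 6, 1 of 6 and 5 of 8. Of all genes, 22.3% and 7.98% were called higher in these fits.

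With GH, called higher against Sham_GH were 8 of 8 homeostatic markers at each day, 5 of 5 tested monocyte markers at day 3 and 3 of 4 at day 10, 6 of 6 border macrophage markers and then 3 of 6, and 3 of 4 neutrophil markers and then 6 of 6. Of all genes, 26.9% and 17.7% were called higher at day 3 and day 10. From PEL_3d_GH to PEL_10d_GH, 6 homeostatic, 3 monocyte and 2 border macrophage markers were called lower, and of the neutrophil markers 3 were called higher and 1 lower, compared with 0 and 3 without GH. The difference of the day effect between the arms was called for 0 of 7 tested neutrophil markers in edgeR.

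Red blood cell markers summed to 17.8 to 42.9 FPKM in Sham, 15.5 to 27.9 in PEL_3d and 26.3 to 126 in PEL_10d. Against Sham 0 of 4 tested were called at either day, with and without Sham 1, and between the days 1 was called higher, Hba-a2 (1.80, SE 0.54, adjusted p = 0.045). Against Sham_GH, 2 of 4 tested were called higher at day 3 and 5 of 5 at day 10. PEL_10d_GH 1 held the highest sum of both the red blood cell markers (213 FPKM) and the neutrophil markers (53.4 FPKM), compared with 66.2 and 25.2 in PEL_10d_GH 2 and 44.9 and 21.1 in PEL_10d_GH 3. Of the B and plasma cell markers, 1 of 2 tested was called higher at day 3, Sdc1 (2.92, SE 0.15, adjusted p = 0.00031), which was called lower between the days (-2.15, SE 0.20), and 0 of 2 at day 10. It was 2 of 3 at day 3 and 0 of 2 at day 10 with Sham 1 left out, and 3 of 3 and 2 of 3 against Sham_GH. Without the library labelled Sham 1, 8 of 10 hypothalamic markers were called lower than in Sham at day 3 and 3 at day 10. All genes called lower were 18.2% and 1.44%, and with all libraries 0 of these markers were called. Between the days, 3 of 7 choroid plexus, 2 of 10 hypothalamic and 2 of 6 striatal markers were called higher and 0 lower (6.33% of all genes higher). Of the hippocampal markers 1 was higher and 1 lower, and of the thalamic 1 lower.

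The genes whose pattern was most like that of the members were found over the 18 hypothalamic libraries, by Pearson's r of log2(FPKM + 0.1) with the mean of the standardised members, among genes with a mean of at least 1 FPKM. They were Cd68 (r = 0.998), Mpeg1 (0.997), Cd53, Cd84 and Capg (each 0.996), and Slc15a3, C3ar1 and Myo1f (each 0.994). The points share libraries and depth, and the contrast of lesioned and other libraries spans most of their range. Cd68, a lysosomal membrane protein of macrophages, was at 4.36 FPKM in Sham, 140 in PEL_3d and 54.6 in PEL_10d. Mpeg1, which encodes the pore-forming perforin-2, was at 7.57, 150 and 72.5 FPKM. Over the 12 lesioned libraries alone the r of these 8 genes was 0.966 to 0.988, where they ranked from 4 to 148 among all genes. Of the 8 genes with the highest r there, led by Sdcbp, Ctsb and B4galt1, only 1 (Slc15a3) was among the 8 found over 18 libraries.

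Among the members, over the same 12 libraries, Fcgr2b and Fcgr3 had the highest r (0.982), and Cybb had the lowest values with all others, from 0.537 with Ncf1 to 0.757 with Ncf4. The pairs without Cybb ran from 0.847 to 0.982.

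In the hippocampus no rise was called at day 10. In HIP_PEL_10d against HIP_Sham, 7 members were tested, Fcgr4 and Ncf4 being too low, and 0 passed in edgeR or DESeq2, where 0.0% of 14039 genes were called in edgeR. Fcgr3 was at 6.25, 7.09 and 7.21 FPKM in HIP_Sham and 11.1, 8.05 and 9.44 in HIP_PEL_10d. Its groups did not overlap, and it was the 1 member of 7 with an unadjusted p under 0.05, as had 10.2% of all genes (log2 fold change 0.52, SE 0.18, adjusted p = 0.45). Cybb, at 0.546, 0.419 and 0.116 FPKM in HIP_Sham and 0.238, 0.070 and 0.067 in HIP_PEL_10d, had a log2 fold change of -0.81 (SE 0.64) on 5 to 27 counts. Without the library labelled HIP_Sham 1, 0 members passed in edgeR, where 2.09% of genes were called higher and 4.07% lower. Of the 7, 2 had an unadjusted p under 0.05, as had 24.5% of all genes, Fcgr2b at 0.72 (SE 0.28, adjusted p = 0.162) and Fcgr3 at 0.40 (SE 0.15, adjusted p = 0.158).

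**Figure D5:**
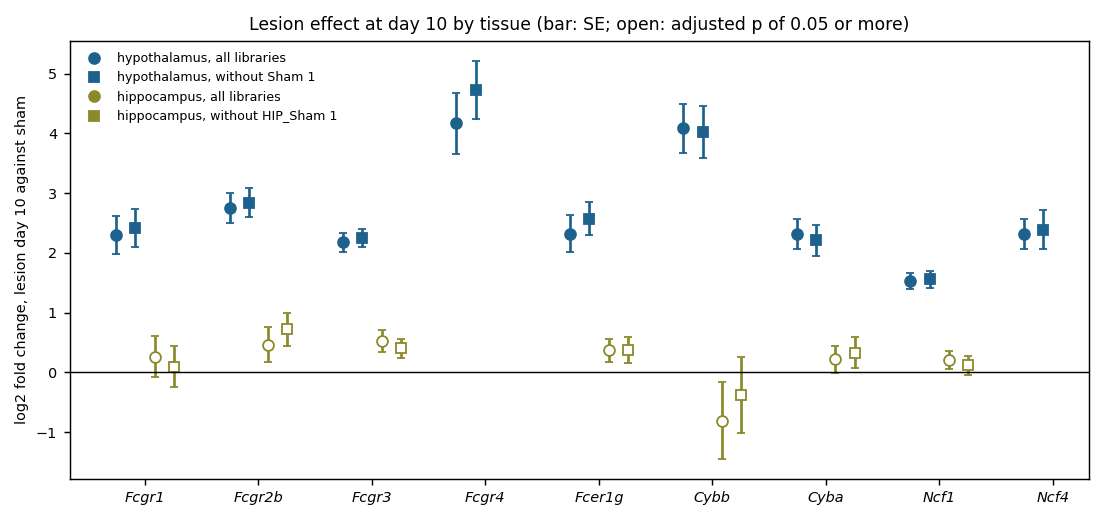
Log2 fold change of each gene from Sham to day 10 after the lesion in the hypothalamus and in the hippocampus, as the edgeR estimate with its standard error. Circles mark the fits with all libraries, and squares those without the library labelled Sham 1 or HIP_Sham 1. The circles run from 1.52 to 4.17 in the hypothalamus and from -0.81 to 0.52 in the hippocampus. The squares run from 1.56 to 4.73 and from -0.37 to 0.72. Fcgr4 and Ncf4 were not tested in the hippocampus.

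The difference of the day 10 effect between the tissues was tested as an interaction term. It passed for 5 of 9 members, all larger in the hypothalamus, where 0.624% of 14912 genes were called in that direction. The differences on the log2 scale were 4.89 for Cybb (SE 0.77, adjusted p = 0.0341), 2.29 for Fcgr2b (SE 0.39, adjusted p = 0.0410), 2.09 for Cyba (SE 0.33, adjusted p = 0.0341), 1.64 for Fcgr3 (SE 0.23, adjusted p = 0.0308) and 1.30 for Ncf1 (SE 0.18, adjusted p = 0.0308). Those of Fcer1g (1.94, adjusted p = 0.0522), Ncf4 (2.20, 0.0588), Fcgr1 (2.03, 0.0942) and Fcgr4 (3.20, 0.137) did not pass. Fcgr4, Ncf4 and Cybb entered this test through hypothalamic groups.

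Without the libraries labelled Sham 1 and HIP_Sham 1, 8 members passed, where 6.52% of genes were called in that direction, with differences from 1.41 to 4.37, and Fcgr4 had an adjusted p of 0.0545. With every library kept as labelled, leaving out any 1 of Sham 2, Sham 3, PEL_10d 1, PEL_10d 3, HIP_Sham 2, HIP_Sham 3, HIP_PEL_10d 2 or HIP_PEL_10d 3 left 0 members called, and over all genes at most 0.00661% were called higher in these fits. Leaving out HIP_Sham 1 alone left 2 members, where 0.0992% of all genes were called higher.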

How the data were processed

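RNA from 24 mouse brain samples was sequenced. Per the labels, an RNeasy kit and a SMARTer mRNA kit were used, and the submitters' processing notes name GRCm38. In 1 table the authors deposited estimated counts and FPKM values of every gene and library. The paper's methods name Hisat2 and featureCounts, yet 8.22% of the deposited counts are not whole, so they were rounded. FPKM values were used as deposited. Symbols were matched for 22219 of 22274 identifiers (Fcgr2b is listed under an older symbol).

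Quasi-likelihood tests used edgeR 4.0.16 under R 4.3.3 (TMM, filterByExpr with a minimum count of 10), each fit holding only the groups compared. Ratios were tested by exact two-sided permutation with scipy 1.17.1. The tests were tried on simulated data. Alternatives were DESeq2 1.42.0, its size factors, no filter, a replicate block, 1 fit over the hypothalamus, and leaving out each library. All 9 members are named, and of each other list up to 4 genes with the largest called change between the days. Members and lists were chosen with earlier results of these data known. Genes named in addition (Hvcn1, Cybc1, Fcgrt, Fcrl1, Fyn, Ighg1, Ighg2b, Ly6g, Elane and the oxidant-defence genes called) were chosen after their values were seen. The study left out 1 Sham sample that the labels do not name, so every library was kept here. A gene of these lists is not reported here, and counts over its list are left out.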

Additional observations from a re-analysis of the deposited data

Results flagged for a closer look

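The PEL effect at day 10 differed between hypothalamus and hippocampus, by an interaction term in edgeR, for 5 of 9 members, where 0.624% of all genes were called in the same direction. The difference on the log2 scale, hypothalamus minus hippocampus, was 4.889 for Cybb, 2.285 for Fcgr2b, 2.088 for Cyba, 1.641 for Fcgr3 and 1.3035 for Ncf1. The day 10 effect was positive in both tissues for Fcgr2b, Fcgr3, Cyba and Ncf1, though not called in the hippocampus, and negative and not called in the hippocampus for Cybb. The tissue markers of the libraries labelled Sham 1 and HIP_Sham 1, each of which enters this comparison as a control, went against their labels. Without both, 8 members were called, where 6.52% of all genes were. Leaving out any 1 of 8 other libraries left 0 members called, where at most 0.00661% of all genes were called higher, and leaving out HIP_Sham 1 alone left 2, where 0.0992% were. Single outlying values were not looked for in groups of 3 libraries.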

How the results depend on the processing

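The direction of every member in the lesion comparisons with Sham and Sham_GH held under all alternatives run. In PEL_10d against Sham, leaving out 1 library gave 0 to 9 members called, and the replicate block gave 0 (adjusted p from 0.0557 to 0.114, all 9 with an unadjusted p under 0.05). Same-numbered libraries did not deviate together beyond a correlation of 0.1 in all pairs of any comparison, though a single pair reached 0.320 in PEL_10d against PEL_3d. In groups of 3 this cannot show whether they share more than a number. With the block, 6 members were called in PEL_10d_GH against PEL_3d_GH (6.2% of all genes lower) and 6 between the tissues (0.764% higher), Fcgr4 in PEL_10d_GH against PEL_10d turned to -0.00054, and the day by GH term of Fcer1g to 0.0051. Leaving out 1 library gave 5 to 8 members in PEL_10d against PEL_3d (7.07% to 11.9% of all genes lower), 4 to 9 in PEL_10d_GH against PEL_3d_GH (3.89% to 16.4%) and 0 to 6 between the tissues (0% to 1.82% higher). Between the tissues DESeq2 called 9 (2.93% of all genes), and 8 were called (6.52%) without the libraries labelled Sham 1 and HIP_Sham 1, an alternative chosen after seeing the data.

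The activating to inhibitory difference turned to -0.093 without Fcgr3 and ran from -0.0055 to 0.126 without single libraries. Relative to homeostatic markers the median member and Fcgr2b turned to -0.028. Uncalled values changed sign when single libraries were left out: Cybb between the days (-0.435 to 0.233), relative to the reference Fcer1g (-0.188 to 0.133), Fcgr1 (-0.231 to 0.138), Fcgr2b (-0.0735 to 0.145) and Fcgr4 (-0.242 to 0.0794), the day by GH terms of Cyba (-0.318 to 0.145), Fcer1g (-0.234 to 0.202), Fcgr1 (-0.0143 to 0.615), Fcgr2b (-0.0014 to 0.354), Fcgr3 (-0.0060 to 0.230) and Ncf4 (-0.0247 to 0.345), and with GH at day 10 Cybb (-0.595 to 0.0657), Fcgr4 (-0.264 to 0.166) and Ncf4 (-0.0679 to 0.295), at day 3 Fcgr1 (-0.341 to 0.167) and Ncf4 (-0.194 to 0.161), in Sham Fcgr1 (-0.528 to 0.0369), and in the hippocampus Fcgr1 (-0.131 to 0.433). The cause was not tested.

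Counts of all genes called higher and lower moved by over 1.5 times in some alternatives. PEL_10d against Sham had 265 and 4, with DESeq2 659 and 41, and in 1 fit over the hypothalamus 777 and 205. In that fit PEL_3d against Sham had 2573 and 1903, PEL_10d against PEL_3d 253 and 1278 (938 and 1804 otherwise), and PEL_10d_GH against Sham_GH 1606 and 351 (2598 and 1949 otherwise). PEL_3d against Sham had 1530 and 153, with DESeq2 1903 and 891, and with the block 965 and 15. It had 3313 and 2712 without the library labelled Sham 1, and 814 and 7 without PEL_3d 3. PEL_10d_GH against PEL_3d_GH had 713 and 1602, and with the block 189 and 920. Between the tissues 93 and 1 were called, with DESeq2 437 and 117, and with its size factors 58 and 0. DESeq2 called 50 and 9 for GH at day 3 (4 and 0 in edgeR), 32 and 7 at day 10, 11 and 1 in Sham and 39 and 192 in the hippocampus (0 in edgeR for each). Depth limits Fcgr4 and Ncf4 in Sham and hippocampus, and Cybb in the hippocampus.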
